A study of Mus musculus with 15 samples.

Results

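The genes described here are 10 that write, guide or erase methylation of lysine 4 of histone H3 (H3K4): the methyltransferase genes Kmt2a, Kmt2b, Kmt2c, Kmt2d, Setd1a and Setd1b, the demethylase genes Kdm5a, Kdm5b and Kdm5c, and Cxxc1, which codes for a CpG-binding guide subunit. They were chosen by name, and all 10 were found among the 21755 protein-coding genes of the mouse annotation. H3K4me3 was measured at their own promoters by PAT-ChIP-seq, which is chromatin immunoprecipitation and sequencing from formalin-fixed, paraffin-embedded tissue, in the livers of 15 C57BL/6 mice. There were 3 mice, and 1 library per mouse, on each of 5 diets, which were a standard diet fed ad libitum (SD), caloric restriction (CR), a high-fat diet ad libitum (HF), a yellow corn-based diet ad libitum (YD) and a purple corn-based diet ad libitum (RD). The corn of YD came from a line nearly isogenic to that of RD but without anthocyanins. The labels give every mouse an age of 12 months, while the methods of the study give a start of the diets at 3 months and 10 months of feeding. By the methods all mice were females of the substrain C57BL/6J. The libraries are called by diet and replicate number, so that SD_1 is the first SD mouse.

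Trimethylation of H3K4 marks the start sites of genes with an open promoter, and in mammals it lies mainly at CpG islands. Enzymes of the KMT2 and SETD1 families place it as parts of COMPASS complexes, which share a set of core subunits, and enzymes of the KDM5 family take it off. The genes for these enzymes carry the mark at their own promoters, so that a change in the mark could also be read at the genes of the machinery itself.

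The data are lists of islands, the enriched regions that SICER2 called in each library from windows of 200 bp. An island was taken as belonging to a gene when it lay within 1 kb of any of its transcription start sites (TSSs). For each gene and library, the width of the widest such island was used, with 0 bp where there was none, together with the score rank, which is the percentile of the highest-scoring such island among all islands of that list and also 0 where there was none. A rank near 100 is therefore an island among the strongest of its library. The width measures how far the mark was called, not how much of it was there. In whole liver, fewer cells with the mark and less of the mark per cell cannot be told apart.

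The lists held 7825 islands in YD_1 to 33752 in CR_3, from 5589269 to 15449854 reads, and 17.5% (YD_3) to 54.6% (HF_1) of protein-coding genes had an island at a TSS. YD_3 stood apart with the lowest share of marked genes and the narrowest islands, with a median width of 1200 bp. The list of YD_1 was the shortest although its library was the deepest. Of 10 hepatocyte markers, 6 to 10 had an island in each library, the fewest in YD_3. Of 4 bile duct markers, 0 to 2 had an island in a library, with Krt19 and Epcam in none, and of 3 lymphocyte markers 0 to 1, with Cd3e in none.

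All 10 genes were marked in liver, and most of them in nearly every mouse. An island was present in 142 of the 150 combinations of gene and library, or 94.7%, where the share over all protein-coding genes was 37.6%. Kmt2a, Kmt2d, Setd1b, Kdm5a, Kdm5c and Cxxc1 had an island in all 15 libraries, which 2059 of 21755 protein-coding genes (9.46%) had. Kmt2b and Kmt2c were without an island in 1 library each, Kdm5b in 2 and Setd1a in 4. The 8 missing islands were in SD_3 (Setd1a and Kdm5b), YD_1 (Kdm5b), YD_2 (Setd1a), YD_3 (Kmt2b, Kmt2c and Setd1a) and RD_3 (Setd1a). The CR and HF mice had all 10 genes marked.

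**Figure D1:**
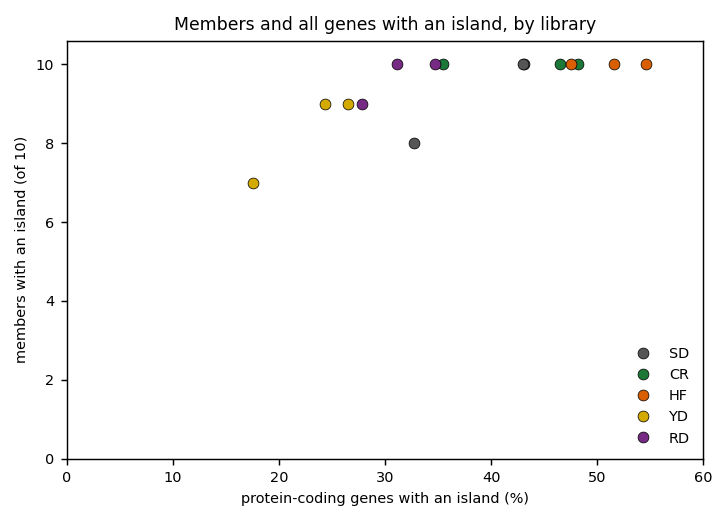
Number of the 10 genes with an island at a TSS (vertical axis) against the percent of all protein-coding genes with an island (horizontal axis), 1 point per library, coloured by diet; SD_1 and SD_2 lie on the same spot. In 10 libraries all 10 genes were marked, and the lowest point is YD_3, with 7 of 10 genes and 17.5% of all genes.

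The promoter sequences of 4 of the genes are shown because they differ in CpG content and go with different island shapes. Each is the 250 bases before the RefSeq start of the gene on GRCm38.p6, the assembly known as mm10, read 5′ to 3′ on the strand of the gene, with CG dinucleotides in capitals.
Kmt2c, chr5:25498784-25499033, minus strand: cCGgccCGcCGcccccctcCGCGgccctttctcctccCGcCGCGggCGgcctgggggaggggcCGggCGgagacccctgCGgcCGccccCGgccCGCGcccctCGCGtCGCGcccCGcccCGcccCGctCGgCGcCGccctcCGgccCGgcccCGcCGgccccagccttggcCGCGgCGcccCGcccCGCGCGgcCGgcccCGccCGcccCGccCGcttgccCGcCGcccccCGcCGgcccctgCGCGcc
Kmt2a, chr9:44881290-44881539, minus strand: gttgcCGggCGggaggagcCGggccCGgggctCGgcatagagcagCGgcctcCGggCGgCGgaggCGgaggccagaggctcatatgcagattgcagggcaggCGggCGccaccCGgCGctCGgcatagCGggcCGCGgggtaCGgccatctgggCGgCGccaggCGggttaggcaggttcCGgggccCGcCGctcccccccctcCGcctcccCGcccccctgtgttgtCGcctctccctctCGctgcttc
Kmt2d, chr15:98871206-98871455, minus strand: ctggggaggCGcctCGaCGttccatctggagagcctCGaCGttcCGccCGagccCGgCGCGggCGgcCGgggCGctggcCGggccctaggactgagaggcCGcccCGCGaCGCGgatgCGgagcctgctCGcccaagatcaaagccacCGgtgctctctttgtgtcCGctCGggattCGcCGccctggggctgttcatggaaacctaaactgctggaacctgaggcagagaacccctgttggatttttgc
Kdm5b, chr1:134559928-134560177, plus strand: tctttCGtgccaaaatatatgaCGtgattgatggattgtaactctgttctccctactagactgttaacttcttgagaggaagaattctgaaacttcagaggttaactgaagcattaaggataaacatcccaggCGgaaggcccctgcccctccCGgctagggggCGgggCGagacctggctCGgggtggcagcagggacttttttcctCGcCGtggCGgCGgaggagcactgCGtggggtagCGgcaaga

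The promoter table held 6 of the 10 genes, and in its 32851 promoters the median count of CG in these 250 bases was 6, with at least 1 CG in 92.1%. Kmt2c had 48, a count that only 0.186% of promoters reached, Kmt2a had 29 (reached by 6.78%), Kmt2d 26 (9.59%) and Setd1a 25 (10.7%). Kdm5b had 13 (31.5%) and Kdm5c 10 (37.8%). The motif CG is its own reverse complement, so 1 strand counts both. The same order was seen in how far the islands reached upstream of the first annotated TSS, where present. The mean reach was 1846 ± 463 bp at Kmt2c (SD, n = 14 libraries), 1584 ± 662 at Kmt2a (n = 15), 1543 ± 403 at Kmt2d (n = 15) and 505 ± 367 at Setd1a (n = 11). It was 216 ± 498 bp at Kdm5b (n = 13) and 166 ± 316 at Kdm5c (n = 15). The match of these orders, over 6 genes in the same libraries, was noticed after the values were seen and is a description. The RefSeq start of Setd1a lies 719 bp downstream of its first TSS in GENCODE and that of Kdm5c 207 bp, and those of the other 4 lie within 7 bp of it.

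The position of the islands around the first TSS differed between genes and, at most of them, also between mice. In 103 of the 150 combinations an island covered the first TSS of the gene, in 14 islands lay on both sides of it with the TSS itself in a gap, in 20 only downstream, in 5 only upstream and in 8 there was none within reach. Kdm5a was the one gene with its first TSS inside an island in all 15 libraries.

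**Figure D2:**
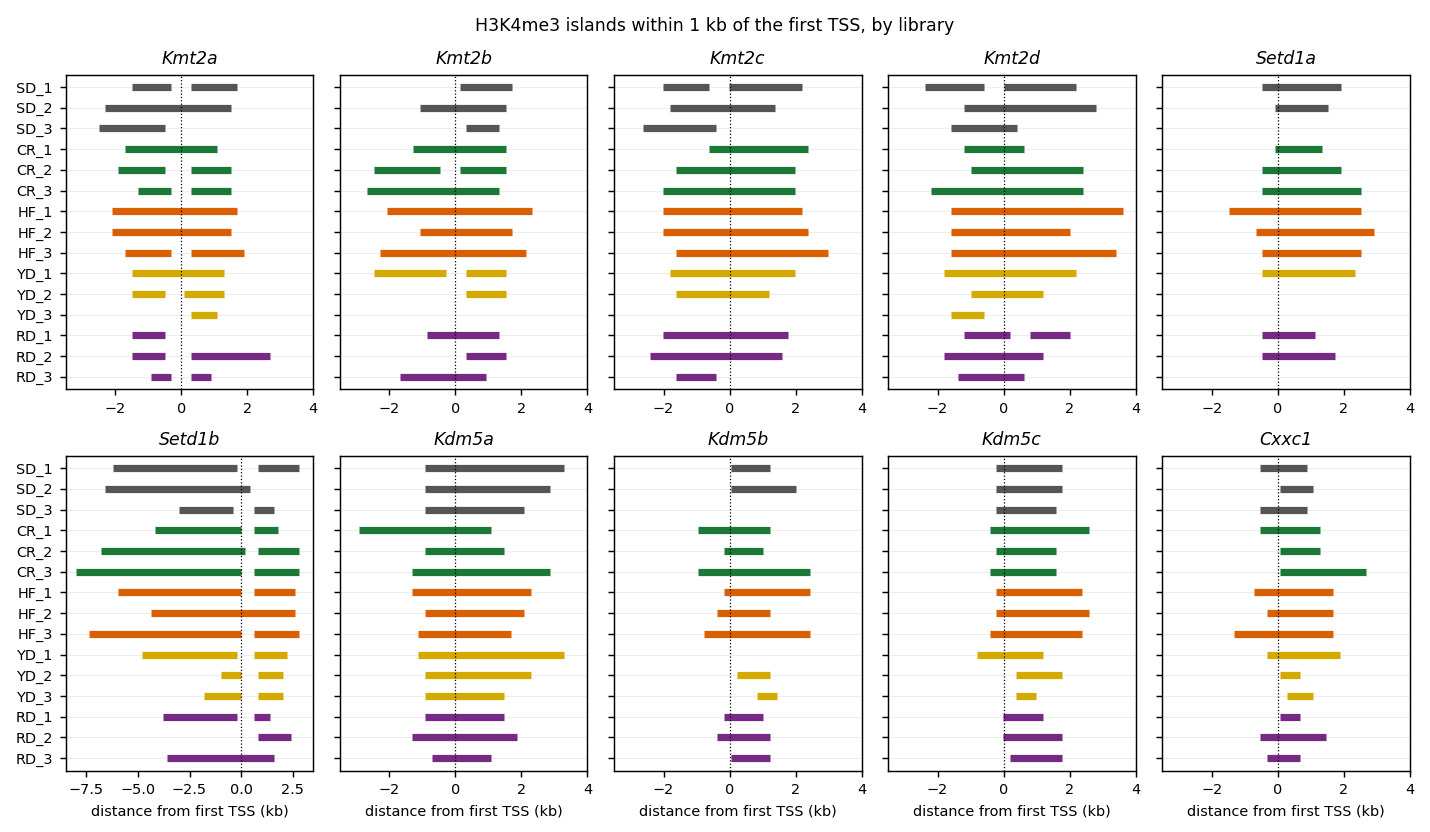
Islands within 1 kb of the first TSS of each gene (dotted line at 0), with distance from the TSS in kb in the direction of transcription (horizontal axis; Setd1b has a wider range) and 1 row per library, coloured by diet. Kmt2a is split around the TSS in 7 libraries, Setd1b has a long block upstream, and the islands of Kdm5b, Kdm5c and Cxxc1 lie mostly downstream.

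Kmt2a codes for MLL1, a writer of H3K4me3 needed for Hox gene expression and for blood stem cells. Its gene spans chr9:44803355-44881296 on the minus strand of mm10. The islands were 1400, 3800 and 2000 bp wide in the SD mice, 2800, 1400 and 1200 in CR, and 3800, 3600 and 1600 in HF. They were 2800, 1200 and 800 bp in YD and 1000, 2400 and 600 in RD. Every diet overlapped with every other one, and the mean over all 15 mice was 2027 ± 1103 bp (SD). In 7 libraries an unmarked gap of 600 to 800 bp divided the island at the first TSS, and 5 libraries had it whole. Present in at least 8 libraries were a region from 1504 to 305 bp upstream and one from 296 to 1495 bp downstream, and the promoter sequence printed for Kmt2a lies in the gap between them. The width of the widest island therefore depends at Kmt2a on whether the gap was bridged. The island also covered a TSS of the antisense RNA AC061963.1 in 9 libraries.

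Kmt2b, on chr7:30568858-30588726 (minus strand), codes for MLL2, the closest relative of MLL1, which marks bivalent promoters in stem cells. Widths were 1600, 2600 and 1000 bp in SD, 2800, 2000 and 4000 in CR, and 4400, 2800 and 4400 in HF. YD_1 and YD_2 had 2200 and 1200 bp and YD_3 had no island, and the RD mice had 2200, 1200 and 2600 bp. All HF mice were above all SD and YD mice, and the overall mean was 2333 ± 1264 bp. Of all genes, 18.2% had all HF mice above all SD mice and 52.1% had them above all YD mice. The score rank ran from 87.4 to 92.5 in HF, 64.4 to 75.5 in SD, and 53.1, 13.8 and 0 in YD. The RD ranks spread widely, at 84.3, 15.6 and 59.3. The island included the microRNA gene Mir3569 in 10 libraries, and HF_3 had a second island, 1600 bp wide, from 14526 bp downstream of the first TSS, next to an internal TSS.

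Kmt2c (chr5:25271798-25498783, minus strand) and Kmt2d (chr15:98831669-98871204, minus strand) code for MLL3 and MLL4, which mainly place monomethyl marks at enhancers. Kmt2c had 2200, 3200 and 2200 bp in SD, 3000, 3600 and 4000 in CR, and 4200, 4400 and 4600 in HF. It had 3800, 2800 and 0 bp in YD and 3800, 4000 and 1200 in RD. The HF values differed by 400 bp at most and all lay above those of every other diet. How many of all genes had this was not counted, and HF had the highest mean of log2(width + 200 bp) at 73.3% of them. The island reached 1817 bp upstream and 1982 bp downstream of the first TSS in at least 8 libraries, over the CG-rich sequence printed, and shared a lincRNA start (4831440E17Rik) in 11. In SD_3 and RD_3 the island lay upstream alone.

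At Kmt2d the widths were 2200, 4000 and 2000 bp in SD, 1800, 3400 and 4600 in CR, and 5200, 3600 and 5000 in HF. They were 4000, 2200 and 1000 bp in YD and 1400, 3000 and 2000 in RD. The mean of HF, 4600 ± 872 bp, was the highest, but HF_2 was below SD_2, CR_3 and YD_1. Kmt2d was the most evenly scored gene under CR, with ranks of 94.5, 94.7 and 95.2, while YD_3 had a rank of 34.4. Its island held a start site of 5730414N17Rik and of Gm49437, neither a protein-coding gene, in 9 libraries.

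Setd1a and Setd1b code for the catalytic subunits of the complexes that place most H3K4me3 in the cell, and their promoters differed in how often they were marked. Setd1a (chr7:127776670-127800122, plus strand) had the most missing islands, with widths of 2400, 1600 and 0 bp in SD, 1400, 2400 and 3000 in CR, and 4000, 3600 and 3000 in HF. YD_1 had 2800 bp and the other two YD mice none, and the RD mice had 1600, 2200 and 0 bp. Where it was present, the island covered the first TSS in 11 of 11 libraries. All HF mice were above all YD and SD mice. Its score rank varied more than that of any other of the genes, at 48.2 ± 35.0 over 15 mice, with 92.2, 78.2 and 82.4 in HF against 68.9, 47.4 and 0 in SD.

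Setd1b (chr5:123142193-123168629, plus strand) had the widest islands of the 10 genes. They were 6000, 7000 and 2600 bp wide in SD, 4200, 7000 and 8000 in CR, and 6000, 7000 and 7400 in HF. In YD they were 4600, 1200 and 1800 bp and in RD 3600, 1600 and 5200. YD lay below HF and overlapped with SD, since SD_3 had 2600 bp. The mark formed a block from 4392 bp upstream to 7 bp downstream of the first TSS and a second one from 608 to 2207 bp downstream, with 11 gaps of 600 to 1000 bp between islands counted over the libraries. The upstream block also held a start site of the lincRNA AI480526 on the opposite strand in 14 libraries, and of 4932422M17Rik in 11 and Gm38102 in 4, so that the width is not that of the Setd1b promoter alone. In RD_2 only the downstream part was called, and the rank there was 32.0, against 95.7 in RD_1 and 93.1 in RD_3.

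Cxxc1, on chromosome 18, codes for CFP1, the subunit that binds unmethylated CpG and brings the SETD1 complexes to promoters. Its widths were 1400, 1000 and 1400 bp in SD, 1800, 1200 and 2600 in CR, and 2400, 2000 and 3000 in HF. They were 2200, 600 and 800 bp in YD and 600, 2000 and 1000 in RD. HF did not overlap with SD, and the 3 SD ranks, 74.7, 65.9 and 74.4, were inside the range of RD, 43.2 to 92.3. In 6 libraries the island began downstream of the first TSS. A second island of 1400 bp, next to a later TSS, was called in CR_1.

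Kdm5a (chr6:120364124-120444574, plus strand) codes for a demethylase of di- and trimethyl H3K4 first described as a partner of the retinoblastoma protein. Its island had the steadiest score rank of the list, and a smaller spread relative to its mean width than the others. Widths were 4200, 3800 and 3000 bp in SD, 4000, 2400 and 4200 in CR, and 3600, 3000 and 2800 in HF. They were 4400, 3200 and 2400 bp in YD and 2400, 3200 and 1800 in RD, and all diets overlapped. The mean was 3227 ± 789 bp and the score rank 94.9 ± 5.17, with RD_3 the lowest at 78.6. In YD the ranks were 94.95, 94.1 and 97.0, the last of these in YD_3, where the other 9 genes ranked from 0 to 63.9. The same island contained a TSS of the divergent protein-coding gene Ccdc77 in all 15 libraries, and its width cannot be assigned to one of the pair.

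Kdm5b (chr1:134560171-134635285, plus strand), a demethylase gene often expressed in stem and tumour cells, had the narrowest islands on average, 1533 ± 1013 bp. Widths were 1200, 2000 and 0 bp in SD, 2200, 1200 and 3400 in CR, and 2600, 1600 and 3200 in HF. They were 0, 1000 and 600 bp in YD and 1200, 1600 and 1200 in RD. YD lay below CR, HF and RD without overlap, while SD overlapped with all other diets. Of all genes, 52.1% had YD below HF in this way and 4.74% had YD below RD. Present in at least 8 libraries was a region from 170 bp upstream to 1229 bp downstream of the first TSS, and the sequence printed for Kdm5b begins upstream of it.

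Kdm5c (chrX:152233020-152274535, plus strand), an X-linked demethylase gene known to escape X inactivation, had narrow islands of high score. Widths were 2000, 2000 and 1800 bp in SD, 3000, 1800 and 2000 in CR, and 2600, 2800 and 2800 in HF. In YD they were 2000, 1400 and 600 bp and in RD 1200, 1800 and 1600. HF was above SD, YD and RD without overlap. The ranks of SD, CR, HF and RD all lay between 89.1 and 97.8, and those of YD were 86.9, 81.7 and 48.9, below all 12 others.

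**Figure D3:**
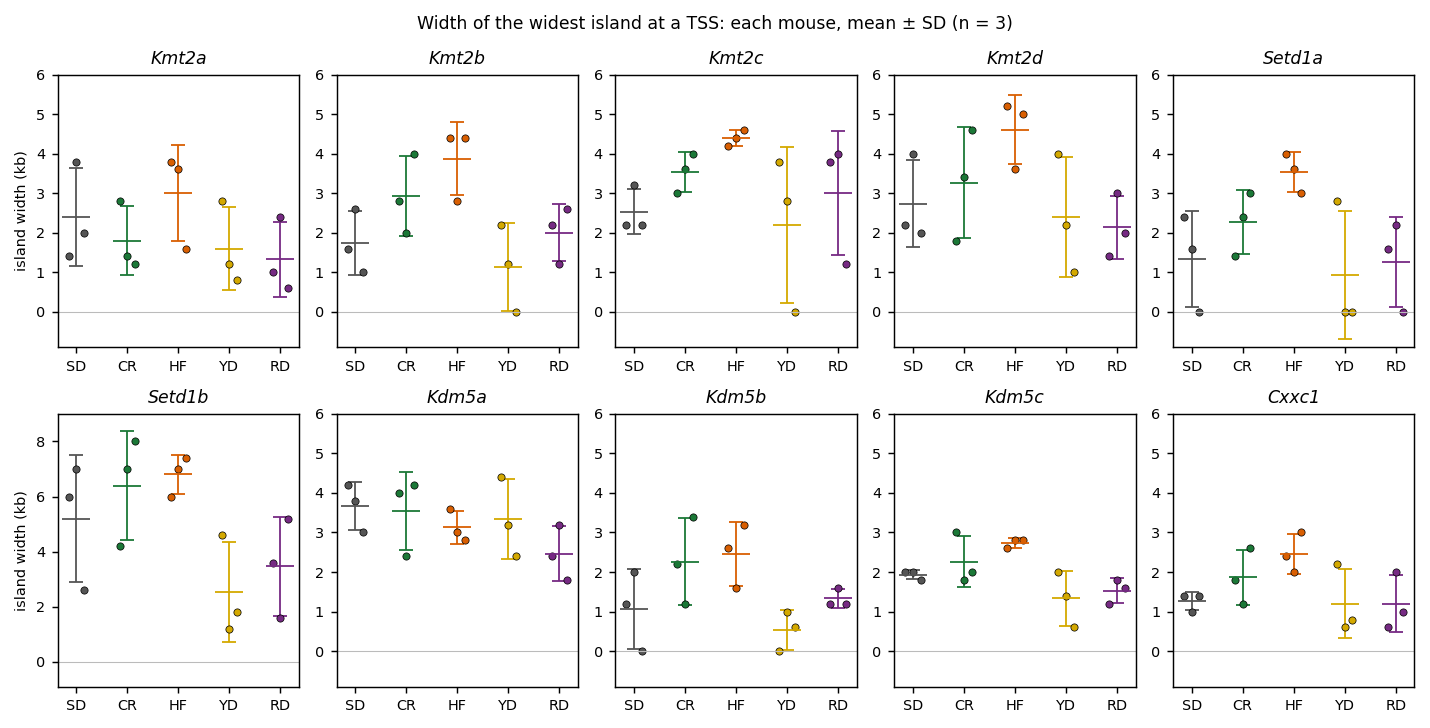
Width in kb of the widest island at a TSS (vertical axis, from below 0 so that mice without an island show at 0; Setd1b has a higher limit) by diet, with 1 dot per mouse and a bar and whiskers for the mean ± SD (n = 3). HF has the highest mean for every gene but Kdm5a, and the spread within diets is as large as most differences between them.

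Ordered by mean width over the 15 mice, Setd1b came first with 4880 ± 2289 bp (SD), followed by Kdm5a, Kmt2c (3133 ± 1280), Kmt2d (3027 ± 1341), Kmt2b, Kmt2a, Kdm5c (1960 ± 647), Setd1a (1867 ± 1362), Cxxc1 (1600 ± 752) and Kdm5b. No neighbours in this order differed by more than the SD of their difference within a mouse. Setd1b was wider than Kdm5a in 11 of 15 mice, with a mean difference of 1653 ± 2254 bp. The median of the 10 means was 2180 bp, against 1440 bp over the 11200 protein-coding genes with an island in at least 3 libraries. It was 2547 bp over the 2059 genes marked in all libraries.

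By score rank the order was different. Kdm5a was first, followed by Kdm5c (89.3 ± 11.9), Setd1b (87.3 ± 21.2), Kmt2d (85.3 ± 17.3), Kmt2c (82.7 ± 24.3), Cxxc1 (70.4 ± 16.4), Kmt2b (62.3 ± 30.0), Kmt2a (61.5 ± 23.6), Kdm5b (55.99 ± 29.5) and Setd1a. Here too no neighbours differed beyond their spread. Kdm5c stood seventh by width and second by rank. Setd1b had the higher rank of this pair in 13 of 15 mice although its mean was lower, and Kdm5c had the higher rank in YD_2 (81.7 against 49.5) and RD_2 (93.7 against 32.0). The median of the 10 mean ranks was 76.5, against 48.3 over the 11200 genes and 84.0 over those marked in all libraries.

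**Figure D4:**
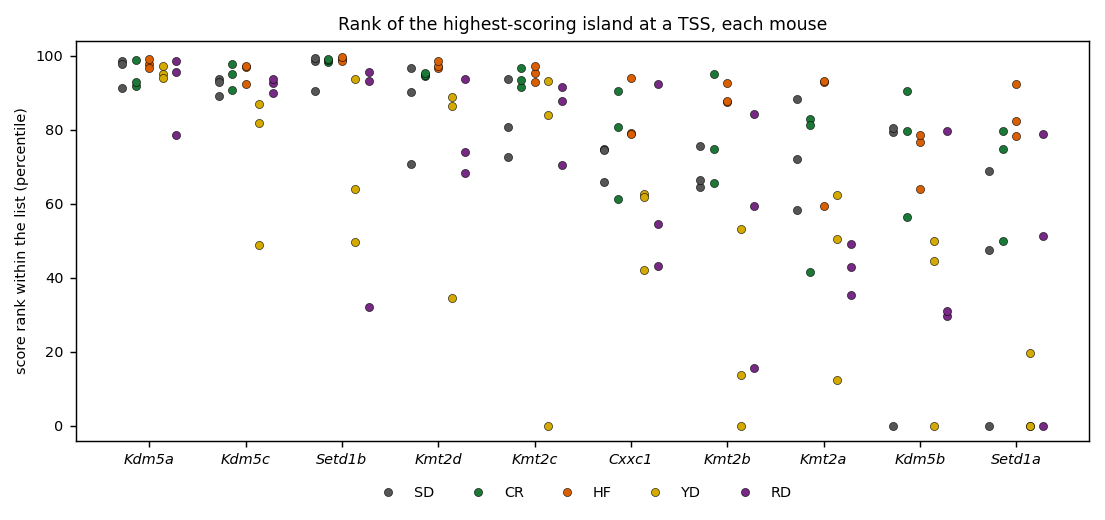
Score rank, as a percentile within the list of each library (vertical axis), of the highest-scoring island at each gene, with 1 dot per mouse coloured by diet and genes ordered by their mean; 0 stands for no island. Kdm5a stays above 78 in all 15 mice, and Setd1a ranges from 0 to 92.2.

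Whether diet changed the width was tested over the 5 diets with limma on log2(width + 200 bp), across all 11200 genes. None of the 10 genes passed an adjusted p of 0.05, where 18.5% of all genes did. Their adjusted p ran from 0.203 (Setd1b) to 0.753 (Kdm5a), and none had an unadjusted p under 0.05, against 36.0% of all genes. An exact permutation test over all 1401400 ways to divide the 15 mice called none of the 10 after adjustment either (4 genes in all), and gave 1 of them, Kdm5c, an unadjusted p of 0.0345 (exact, adjusted p = 0.137).

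The score rank gave lower p-values for a few genes. With limma none of the 10 was called, where 16.1% of all genes were, and 2 had an unadjusted p under 0.05, against 37.3% of all genes. In this limma fit these were Kmt2b (adjusted p = 0.0629) and Setd1a (adjusted p = 0.0704), both highest in HF and lowest in YD. Both passed in some alternatives. Without RD_2, limma gave an adjusted p of 0.0295 for Kmt2b and 0.0430 for Setd1a, and over all alternatives it ran from 0.0295 to 0.412 and from 0.0338 to 0.345. The exact permutation test gave 3 genes an unadjusted p under 0.05, Kdm5c (p = 0.00408, adjusted p = 0.0925), Kmt2b (p = 0.0191, adjusted p = 0.117) and Setd1a (p = 0.0434, adjusted p = 0.152), and called none of the 10, with 23 genes called in all.

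The rank was also compared between pairs of diets, which was added after the values were seen. limma called none of the 10 genes in any of the 5 pairs, where it called 6.49% of all genes in YD against SD, 0.125% in RD against SD, 1.05% in HF against SD, 0.0714% in CR against SD and 1.77% in RD against YD. At an unadjusted p under 0.05 there was 1 gene in YD against SD, Kmt2b, with a difference of -46.4 ± 16.5 percentiles (SE) in YD from SD (adjusted p = 0.105 with limma). In HF against SD there was also 1, Setd1a, 45.5 ± 19.5 percentiles higher in HF (adjusted p = 0.382 with limma). The other 3 pairs had none. Of all genes, 26.3% had an unadjusted p under 0.05 in YD against SD and 11.4% in HF against SD. The shares were 9.53% in RD against SD, 6.31% in CR against SD and 13.8% in RD against YD. Without YD_1, Kmt2b passed in YD against SD.

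In YD against SD most genes had narrower islands or none, and all 10 genes had lower fitted widths, but none of them passed the test. limma called 788 genes narrower in YD (7.04%) and none wider, and called none of the 10 genes. Their adjusted p ran from 0.257 to 0.857, with no unadjusted p under 0.05 (25.3% of all genes). The difference of log2(width + 200 bp) was below 0 for all 10, as for 92.8% of all genes. Its median was -0.59, against -1.08 over all genes. Among genes marked in all 15 libraries, which include 6 of the 10, the medians were -0.50 and -0.49. The largest were -1.07 ± 0.59 (SE) at Setd1b, -1.06 ± 0.76 at Kmt2b and -1.01 ± 0.88 at Kmt2c. No gene of the 10 had all 3 YD mice below all 3 SD mice, which 16.3% of all genes had, and none was lost in YD by the rule of 2 of 3 SD mice and no YD mouse (18.3% of all genes). Without YD_3 the difference was below 0 for 6 of the 10 and the median was -0.13, with -0.77 over all genes. After the median width of genes marked in every library was subtracted, which was 0.49 lower in YD on the log2 scale, 7 of the 10 were lower and Kmt2d, Kdm5a and Cxxc1 were higher.

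In RD against SD, none of the 10 was called by limma (0.875% of all genes were called narrower and 0.0179% wider). None had an unadjusted p under 0.05 (11.3% of all genes). The median difference was -0.25, against -0.53 over all genes. Narrower in RD were 7 of 10 genes, as were 80.3% of all genes, or 5 of 10 after the library median (0.31 lower in RD) was subtracted. Among genes marked in all 15 libraries the order of the medians turned, with -0.48 over 6 of the 10, all narrower, and -0.29 over all such genes. Kmt2a had the largest decrease, -0.83 ± 0.62 (SE, adjusted p = 0.734), and Kdm5b the largest increase, 0.84 ± 0.84 (adjusted p = 0.746). The mice of both diets overlapped at all 10 genes, where 8.85% of all genes had every RD mouse below every SD mouse and 0.393% the reverse.

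In RD against YD, which differ in the corn used, none of the 10 was called by limma (1.16% of all genes wider in RD and 0.0268% narrower). None had an unadjusted p under 0.05 (10.7% of all genes). Kdm5b was the one gene whose 3 RD mice (1200, 1600 and 1200 bp) were all above the YD mice (0, 1000 and 600 bp), as were 4.74% of all genes, and its difference of 1.40 ± 0.84 had an adjusted p of 0.646. The median difference was 0.38, against 0.33 over all genes. Wider in RD were 7 of the 10 genes, as were 61.6% of all genes, or 6 of 10 after the library median was subtracted. The direction rested on YD_3, since without it 4 of the 10 were wider in RD and 6 narrower. The median was then -0.12, and 0 over all genes. With equal numbers of islands from every list it was also 4 against 6, with a median of -0.49, and 0 over all genes.

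At most of the genes the widest islands were those of HF. HF had the highest mean of log2(width + 200 bp) at 9 of the 10 genes, as at 73.3% of all genes, and SD at Kdm5a. All 3 HF mice were above all 3 SD mice at Kmt2b, Kmt2c, Setd1a, Kdm5c and Cxxc1, 5 of the 10 genes, where 18.2% of all genes had this. limma called none of the 10 in HF against SD (3.04% of all genes wider, 0.0179% narrower), and none had an unadjusted p under 0.05 (13.7% of all genes). The largest differences were 1.92 ± 1.20 (SE) at Setd1a, 1.60 ± 0.84 at Kdm5b (adjusted p = 0.455, the lowest of the 10) and 1.13 ± 0.76 at Kmt2b. The median was 0.76, against 0.64 over all genes. The library median was 0.39 higher in HF, and after it was subtracted 8 of the 10 genes were wider, with Kmt2a and Kdm5a narrower. Without HF_1 the median over the 10 genes was 0.73, and the genes that limma called in all fell from 342 to 13. Without HF_3 these were 0.70 and 23, and without HF_2 0.84 and 304.

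Markers of endothelial, stellate and Kupffer cells were marked most often in the HF libraries. These libraries also had the largest share of all protein-coding genes with an island, with a mean of 51.2%. The mean share was 43.4% in CR, 39.6% in SD, 31.2% in RD and 22.8% in YD. Of 5 markers of sinusoidal endothelial cells, 2 to 5 had an island in the HF mice, 0 to 3 in SD and none in YD, and of 5 stellate cell markers 1 to 4 in HF, 0 to 2 in SD and none in YD or RD. Of 6 Kupffer cell markers, 0 to 3 had an island in HF and none in any other diet, with Vsig4, Marco and Timd4 in no library. Bile duct markers were marked most often in CR (0 to 2, against 0 to 1 in HF), and lymphocyte markers at 0 to 1 in every diet but YD, which had none. Hepatocyte markers were marked in 10 of 10 cases in every HF mouse. The part of other cells in the HF widths was not tested. The library names hold the word PATChIP in HF_2, HF_3, CR_1, CR_2 and RD_1, and ChIP in the other 10, among them all SD and YD libraries. Within the ChIP form only HF_1 stands for HF, and it had wider islands than the SD mean at 9 of the 10 genes. The median difference from SD in these libraries was 0.78 over the 10 genes and 0.83 over all genes. Whether the name form plays a part was not tested.

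In CR against SD, 8 of the 10 genes were wider in CR, as were 64.4% of all genes. It was also 8 of the 10 after the library median (0.14 higher in CR) was subtracted. None of the 10 was called by limma (0.196% of all genes wider and 0.00893% narrower) or had an unadjusted p under 0.05 (5.59% of all genes). The median difference was 0.40, against 0.19 over all genes. Kdm5b had 1.43 ± 0.84 (SE) and Setd1a 1.28 ± 1.20, and the diets overlapped at all 10 genes, where 5.4% of all genes had every CR mouse above every SD mouse and 1.21% the reverse.

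HF against YD, a comparison added after the values were seen, separated the mice of both diets at 6 of the 10 genes (Kmt2b, Kmt2c, Setd1a, Setd1b, Kdm5b and Kdm5c), all wider in HF, and at 52.1% of all genes. The lowest mean of log2(width + 200 bp) was that of YD at 7 of the 10 genes, as at 55.9% of all genes. It was that of RD at Kmt2a, Kmt2d and Kdm5a (17.7%). In bp, YD and RD had the same mean at Cxxc1, 1200 bp. The comparisons with SD share the SD mice, and those with YD the YD mice, so their values are not independent of each other. A comparison of 3 mice with 3 cannot reach an exact two-sided p under 0.1.

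**Figure D5:**
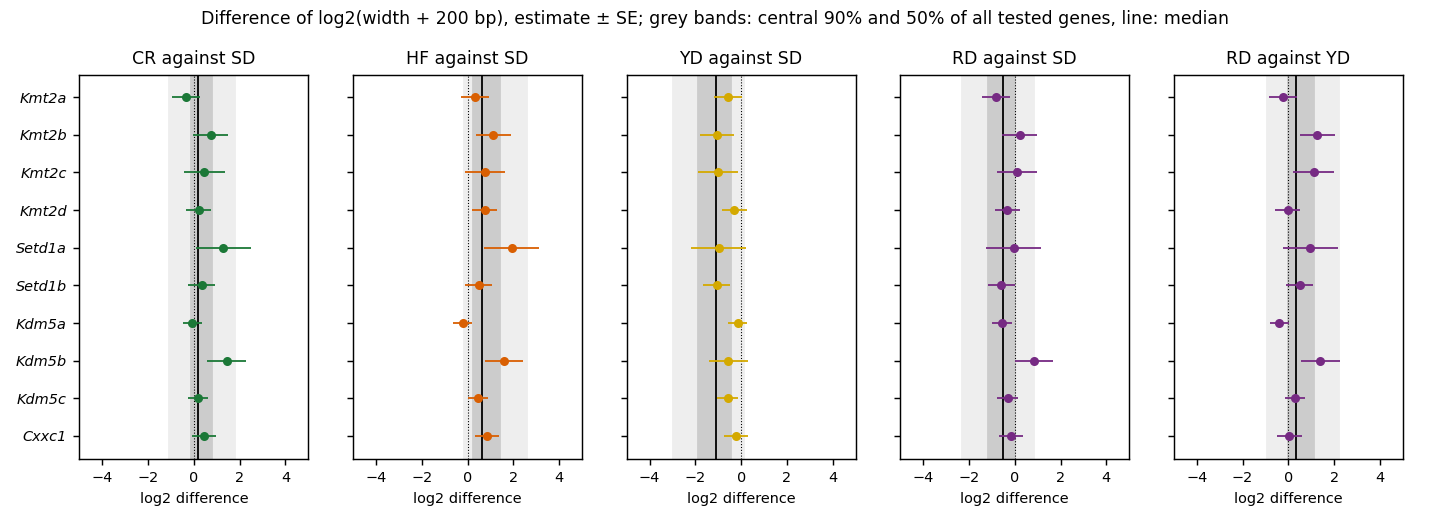
Difference of log2(width + 200 bp) between diets (horizontal axis) for the 10 genes, as the limma estimate ± SE, in each of the 5 comparisons; grey bands give the central 90% and 50% of all 11200 genes and the black line their median. In YD against SD all 10 genes lie to the right of the median of all genes, at -1.08, and to the left of 0.

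The 10 genes varied among themselves once the library median was removed. The share of the variance of centred log2 width that lay between diets was 68.0% at Kdm5a and 4.29% to 32.6% at the other 9, with a median of 35.5% over all genes. Without centring it was 32.4% at Kdm5a. After this centring limma called none of the 10 genes over the 5 diets, Kdm5a included, where it called 6.29% of all genes. The profile of Kdm5a over the 15 libraries was most like that of Fga, the fibrinogen alpha chain gene (Spearman rho 0.846), and of Arfrp1 and Zgpat (both 0.825), out of 2057 genes marked in all libraries. All these points share the subtracted library median. Among the 45 pairs of the 10 genes, rho ran from -0.384 (Setd1b and Kdm5a) to 0.746 (Kmt2b and Kdm5b), with a median of 0.144 over 15 libraries.

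Other genes of the pathway were followed by a fixed list of 31, made of shared COMPASS subunits, partners of single complexes, further H3K4 methyltransferases and demethylases, and readers of H3K4me3. Of these, 6 had an island in all 15 libraries. limma called 5 of 31 over the 5 diets (18.5% of all genes) and 4 of 31 narrower in YD than SD (7.04%), with no other call in any of the other 4 comparisons. Dpy30, a core subunit of all COMPASS complexes, had 2400, 1400 and 2200 bp in SD and no island in any YD mouse (adjusted p = 0.0139). Kdm1a, which codes for the demethylase LSD1, had 1800, 1400 and 2800 bp in SD and again none in YD (adjusted p = 0.00827). Phf2, a reader of the PHD finger family, had 1200, 800 and 800 bp in SD and none in YD (adjusted p = 0.0279). Some genes of the list that were not called also had no island in any YD mouse. None of the 10 genes that write, guide or erase the mark was without an island in all 3 YD mice. Of all genes, 18.3% had an island in at least 2 of 3 SD mice and in no YD mouse. Ash1l, a methyltransferase mainly of H3K36, had 1600, 2800 and 1600 bp in SD and 0, 800 and 0 in YD (adjusted p = 0.0220). The fifth, Riox1, was called over the 5 diets alone (adjusted p = 0.00898), with no island in any YD or RD mouse. None of the 9 partners of single complexes was called.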

How the data were processed

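H3K4me3 islands of 15 mouse livers were read from the lists that the authors deposited, 1 per library. The authors aligned 50 bp single reads to mm10 with bwa, kept with samtools only mapped, unduplicated reads of MAPQ 1 or more on chromosomes 1 to 19 and X, and called islands with SICER2 (fragment and window 200 bp, gap 400 bp, FDR under 0.05). The deposited score of an island sums, over its enriched windows, the negative natural log of how probable its reads are under a Poisson background. It is not scaled between libraries and was only ranked within a list. Reads per island were not used here, and neither was an input. The number of reads behind each list was recovered from score steps of single-window islands, with an effective genome fraction of 0.74 assumed.

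Diets and replicate numbers came from the labels. Islands were assigned to GENCODE M21 TSSs within 1 kb. Protein-coding genes with an island in at least 3 libraries were fitted with limma 3.58.1 in R 4.3.3 on log2(width + 200 bp), or on the rank, with p-values adjusted by the Benjamini-Hochberg method over 11200 genes. Exact permutation tests and all else were made in Python 3.11.15 (numpy 2.4.6, scipy 1.17.1, numba 0.67.0). All p-values are two-sided. In simulated widths for YD against SD over 11200 genes, limma recovered 0, 8, 13 and 30 of 50 genes changed by 1, 2, 3 and 4 on the log2 scale, and called 0 unchanged genes. Every one of the 10 genes was named. Pathway genes were named when called, and for the gene with the largest share of centred variance between diets, the 3 genes of highest rho. The genes, lists and tests were chosen with earlier results of these data known. Promoters came from RefSeq (GRCm38.p6), where Kmt2b, Setd1b, Kdm5a and Cxxc1 were not found. The alternatives were other TSS distances, island filters, pseudocounts, centring, summed or capped width, other ranks, gene filters, libraries named ChIP, a replicate block, the exact test and the omission of each mouse.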

Additional observations from a re-analysis of the deposited data

How the results depend on the processing

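In the 5 comparisons of width between pairs of diets, no alternative run called any of the 10 genes. By rank, the omission of single mice gave 0 to 1 genes in YD against SD (Kmt2b without YD_1) and the other pairs gave none. Over the 5 diets, Kdm5b was called by width (1 gene) with the TSS required inside the island (adjusted p = 0.0212) and with the weaker-scoring part of each list removed at its median (adjusted p = 0.0432, with 0.0212 to 0.648 over all alternatives), and Setd1a by rank (1 gene) among promoter islands alone (adjusted p = 0.0474). The omission of single mice gave 0 to 2 genes called by rank, namely Setd1a without SD_3, RD_2 or RD_3 and Kmt2b without YD_1, RD_1 or RD_2, and 0 to 0 by width. The mean number of the 10 genes marked per library, 9.47, was 8 with the TSS inside the island and 8.13 with that removal, and 9.43 to 9.64 without single mice; the cause was not tested. The counts over all genes moved more. By width over the 5 diets, 2077 genes became 4 in the exact test, 393 in libraries named ChIP, 411 with equal numbers of islands, 705 after centring, 1153 after that removal and 0 among genes marked in all 15 libraries, also centred (added after seeing the data). By rank, 1803 became 23, 409 and 68 in the first 3 of these, 363 after it, 1038 among promoter islands and 29 among genes marked in all libraries. The 788 genes of YD against SD ranged from 0 to 1249, the 100 of RD against SD from 0 to 224, the 342 of HF against SD from 0 to 536, the 23 of CR against SD from 0 to 117 and the 133 of RD against YD from 0 to 314. By rank the 727, 14, 118, 8 and 198 genes of these pairs, in the same order, ranged from 8 to 1560, 0 to 182, 0 to 275, 0 to 188 and 0 to 370. With replicate numbers as a block, 1779 genes and 0 of the 10 were called by width and 1250 and 0 by rank. The numbers were not taken as pairs, since deviations from the diet means correlated by -0.104 to 0.0900 in 30 same-numbered pairs, all under 0.1. As a hint the other way, 8 of 15 libraries were most like one of their own number. Groups of 3 mice limit all tests here. Simulated differences of 2 on the log2 scale were mostly missed, with 200 of 11200 genes changed. In the data 788 genes were called in YD against SD, so the adjustment was stricter in the simulation. The simulated recovery therefore does not give the power of the test in the data.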

Other observations

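Islands away from every TSS of the 10 genes lay at the 3′ ends of 2 of them. At the 3′ end of Kmt2a, 11 libraries had an island between positions 44798401 and 44806800 of chromosome 9 (mm10), 1600 to 7600 bp wide. These islands were not 1 region, since that of CR_2 ended at 44804000 and that of CR_1 began at 44805001. An island covered a TSS of the next gene, Ttc36, in 5 libraries and one of Tmem25 in 3. In SD_1, SD_2, CR_2, HF_1 and YD_1 the island ran past the end of Kmt2a. Those islands had score ranks from 86.8 (YD_1) to 98.9 (SD_1). In the others it lay within the gene, with ranks from 14.7 (HF_3) to 56.1 (CR_3). The rank was above that of the Kmt2a promoter island in 6 of the 11 libraries and below it in 5. In CR_2 the island past the gene end had 98.4 against 41.7 at the promoter. In CR_1 the island within the gene had 19.9 against 82.9. At the 3′ end of Kmt2d, 7 libraries had an island of 1000 to 2200 bp that covered a TSS of Prkag1, which codes for a subunit of the kinase AMPK. Setd1b had an internal island of 1400 bp in HF_3 alone, with a rank of 2.37.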
